A study of Homo sapiens with 12 samples.

Results

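The 47 genes described here encode proteins of the centromere, the kinetochore, the spindle checkpoint and the chromosomal passenger complex, with HJURP at the centre of the question asked. They were listed by name and matched to the Ensembl identifiers of the deposited expression files, which held 57815 genes each, and all 47 were found. The question was whether HJURP changed beyond the rest of the group when NRF2 was knocked down. The RNA-seq libraries came from A549, H2023 and H460. These are human non-small cell lung cancer (NSCLC) lines with a KEAP1 mutation, by the labels. A549 and H2023 come from lung adenocarcinoma and H460 from large cell carcinoma of the lung, and each is a single established line. KEAP1 marks the transcription factor NRF2 for degradation, and all groups, controls included, carried its mutation. Transfection was with control siRNA or with NRF2 siRNA, and RNA was taken 48 h later, in 6 groups of 2 libraries. In every line the library numbered 0 of the NRF2 siRNA group was made with siRNA 28 and the library numbered 1 with siRNA 30, and these differing siRNAs were treated by the study as duplicates. The control libraries were biological duplicates by the study's methods. A549 libraries were made after removal of ribosomal RNA and those of H2023 and H460 after polyA selection, so in any contrast with A549 the cell line and the library protocol cannot be told apart.

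Centromeres are marked not by a DNA sequence but by nucleosomes that hold CENP-A, a variant of histone H3 encoded by CENPA. HJURP is the chaperone that binds newly made CENP-A and places it at the centromere after mitosis, at sites licensed by the Mis18 complex, to which MIS18A and OIP5 (also called MIS18B) belong. On this base the constitutive centromere network carries the outer kinetochore. Of the members, CENPC and CENPH to CENPW encode parts of this network, and CENPE and CENPF do not. At the outer kinetochore the Ndc80 complex grips microtubules, and the spindle checkpoint delays anaphase until every chromosome is attached. Many of these genes are transcribed in a wave that peaks in G2 and M phase, through the DREAM complex and its CHR promoter element, together with CCAAT boxes bound by NF-Y.

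The knockdown was checked in all 12 libraries. NFE2L2, the gene that encodes NRF2, lay between 30.9 and 144 FPKM in the 6 control libraries and between 5.31 and 12.2 FPKM in the 6 NRF2 siRNA libraries. FPKM counts fragments relative to transcript length and to library size. Among 7 known NRF2 target genes (NQO1, GCLM, GCLC, TXNRD1, SRXN1, OSGIN1 and SLC7A11), 7 were called lower in A549, 6 in H2023 and 7 in H460. Each library held between 12732 and 13909 genes with at least 1 FPKM. The 4 epithelial markers KRT8, KRT18, EPCAM and CDH1 reached 1 FPKM in each line in at least 1 library. In H2023, CDH1 rose from 12.6 and 8.05 FPKM to 65.0 and 58.3 FPKM (limma adjusted p = 0.0280). KRT8 was at 1474 and 1303 FPKM in H2023 controls and at 3101 and 2919 FPKM after knockdown (limma adjusted p = 0.0819), and in H460 at 553 and 673 FPKM in controls and at 990.1 and 1723 FPKM after knockdown (limma adjusted p = 0.0808). KRT8 and KRT18 rose in the average of the lines, by 0.78 and 0.60 on the log2 scale (limma adjusted p = 0.00638 and 0.00556), while EPCAM passed in no line. In every line the leukocyte markers PTPRC and CD3E and the endothelial marker VWF stayed under 1 FPKM. PECAM1, the other endothelial marker listed, had no matched identifier and was not analysed here. Of the lung adenocarcinoma markers NKX2-1, NAPSA and SFTPB, only NAPSA in H2023 reached 1 FPKM. The fibroblast marker COL1A1 was at 1.81 and 2.06 FPKM in H460 controls and at 5.94 and 5.81 FPKM after knockdown (limma adjusted p = 0.0329), while DCN stayed at 0.121 FPKM or less there. COL1A1 lay between 1.36 and 7.61 FPKM in H2023, where the groups overlapped, and under 1 FPKM in A549. The part of these marker changes in the members' values was not tested.

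The promoters of HJURP and of a few other members are printed first. They are the 250 bases before the annotated start, 5′ to 3′ on the strand of the gene, from the RefSeq annotation of GRCh38.p14. HJURP is shown as the centre of the question, CENPA as the gene of its cargo, and MAD2L1, CDC20, PLK1 and SKA2 as members with wide changes. Capitals mark matches, on either strand, to the CHR element (TTTGAA or TTCGAA), the CCAAT box (CCAAT), the antioxidant response element (ARE) bound by NRF2 (TGACNNNGC or TGAGNNNGC), or an E2F site (TTCGCGC or TTGGCGC).
HJURP (chr2:233854536-233854785, minus strand): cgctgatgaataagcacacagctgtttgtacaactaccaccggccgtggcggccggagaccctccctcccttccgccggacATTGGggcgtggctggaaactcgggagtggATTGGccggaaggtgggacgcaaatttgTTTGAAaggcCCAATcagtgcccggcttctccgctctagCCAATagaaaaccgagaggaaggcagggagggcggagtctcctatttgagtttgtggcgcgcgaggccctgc
CENPA (chr2:26785806-26786055, plus strand): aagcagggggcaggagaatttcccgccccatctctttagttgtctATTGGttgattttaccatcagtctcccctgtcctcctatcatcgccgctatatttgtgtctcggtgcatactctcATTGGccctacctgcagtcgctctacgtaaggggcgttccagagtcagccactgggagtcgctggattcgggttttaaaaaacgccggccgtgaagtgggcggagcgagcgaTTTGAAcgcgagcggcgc
MAD2L1 (chr4:120066849-120067098, minus strand): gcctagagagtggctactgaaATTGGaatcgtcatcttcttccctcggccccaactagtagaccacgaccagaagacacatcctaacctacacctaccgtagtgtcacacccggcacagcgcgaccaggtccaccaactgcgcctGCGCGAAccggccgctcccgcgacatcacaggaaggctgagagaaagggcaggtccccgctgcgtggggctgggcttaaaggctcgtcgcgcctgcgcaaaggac
CDC20 (chr1:43358731-43358980, plus strand): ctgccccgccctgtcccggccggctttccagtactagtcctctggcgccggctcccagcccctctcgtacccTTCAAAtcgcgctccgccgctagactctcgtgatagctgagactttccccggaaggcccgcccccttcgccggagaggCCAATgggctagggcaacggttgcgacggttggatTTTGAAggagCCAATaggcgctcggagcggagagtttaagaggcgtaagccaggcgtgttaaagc
PLK1 (chr16:23678639-23678888, plus strand): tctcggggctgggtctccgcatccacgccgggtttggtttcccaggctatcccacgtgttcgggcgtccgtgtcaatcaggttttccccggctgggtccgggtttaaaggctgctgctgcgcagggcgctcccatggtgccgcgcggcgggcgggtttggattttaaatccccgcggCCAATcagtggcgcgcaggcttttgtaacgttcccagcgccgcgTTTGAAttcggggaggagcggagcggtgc
SKA2 (chr17:59155187-59155436, minus strand): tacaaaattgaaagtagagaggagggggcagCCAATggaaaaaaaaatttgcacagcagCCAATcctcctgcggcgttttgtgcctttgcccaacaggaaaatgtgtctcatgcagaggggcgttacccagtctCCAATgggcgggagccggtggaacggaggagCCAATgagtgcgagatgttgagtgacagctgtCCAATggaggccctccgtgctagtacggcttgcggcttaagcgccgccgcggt

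Of the 47 members, 38 had a promoter in that table. BIRC5, KNL1, CENPM, CENPH, MIS18A, CENPL, TTK, KNTC1 and BUB3 had none. The HJURP promoter held 1 CHR match, from 111 to 106 bases before the start, and 4 CCAAT matches, with no ARE or E2F match in this window. At least 1 CHR match was found in 11 of the 38 member promoters (28.9%), against 14.6% of all 27305 promoters of the same length. A CCAAT match was found in 25 members (65.8%, against 33.04% of all promoters) and an E2F match in 5 members (13.2%, against 4.37%). An ARE match was found in 13 members (34.2%, against 24.2%). Of the 6 promoters printed, none held an ARE match, and SKA2 alone held 5 CCAAT matches. BUB1B and CENPE, with lower average differences than PLK1, were not printed. The BUB1B promoter held 1 match, a CHR element, and that of CENPE held 0. Matches to different motifs could share bases, as happened in CDCA8, ZW10 and OIP5. These are matches of letters and not binding sites.

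HJURP (ENSG00000123485.7, chromosome 2, 234742062 to 234763212, minus strand, GRCh37) was among the most abundant members in control cells. In A549 its control values were 104 and 105 FPKM, and its values were 49.1 FPKM with siRNA 28 and 49.7 FPKM with siRNA 30. In H2023 it was at 90.1 and 110.1 FPKM in the control libraries, at 44.9 FPKM with siRNA 28 and at 60.1 FPKM with siRNA 30. In H460 it was at 112 and 125 FPKM in the control libraries, at 25.6 FPKM with siRNA 28 and at 29.9 FPKM with siRNA 30. In each line both NRF2 siRNA libraries lay below both control libraries. The mean of the 2 control libraries was 119 ± 8.91 FPKM (SD) in H460, 105 ± 0.458 FPKM in A549 and 100.1 ± 14.1 FPKM in H2023. The mean of the 2 knockdown libraries was 27.7 ± 3.04 FPKM (SD) in H460, 49.4 ± 0.370 FPKM in A549 and 52.5 ± 10.7 FPKM in H2023. HJURP mRNA with NRF2 siRNA was therefore at 47.2% of its control mean in A549, at 52.4% in H2023 and at 23.4% in H460. Ordered from the highest FPKM, HJURP stood at position 3 of the 47 members in control A549, 5 in control H2023 and 4 in control H460, and at 8, 6 and 8 after knockdown.

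Differences were taken as log2(FPKM + 1), a scale on which genes with low values show less than their full change. HJURP fell by 1.07 in A549 (SE 0.12, 95% interval -1.38 to -0.76, limma adjusted p = 0.0345). In H460 it fell by 2.06 (SE 0.22, 95% interval -2.58 to -1.54, limma adjusted p = 0.0120). In H2023 the difference was -0.93 (SE 0.21, 95% interval -1.45 to -0.40), and its limma adjusted p of 0.138 did not pass the threshold of 0.05. Adjustment here and below was over all genes tested in the line. In a single limma fit of all 12 libraries the H2023 difference passed (adjusted p = 0.0180), as did A549 (0.0243) and H460 (0.000113). Such a fit takes 1 variance per gene for all lines. The median SD of log2 values between libraries ran from 0.110 in A549 controls to 0.248 in H460 with NRF2 siRNA. That fit called more genes in H2023 and H460 than the fits by line: HJURP alone of the members in A549 (against 0.614% of genes called lower), HJURP, CENPE and CDC20 lower in H2023 (against 1.75%) with SKA2 higher (against 2.18%), and 32 members lower in H460 (against 17.8%). Averaged over the 3 lines in that fit, HJURP fell by 1.35 (SE 0.10, 95% interval -1.58 to -1.12, limma adjusted p = 2.66e-05), the smallest p among the 47 members. The study's own test on these same libraries called HJURP lower in all 3 lines, H2023 included, at its adjusted p threshold of 0.05. The study then picked HJURP for further work, so its change is not independent evidence. The A549 call was close to the threshold, and leaving out any 1 of the 4 A549 libraries moved its limma adjusted p to between 0.0669 and 0.277. In H460 the adjusted p was 0.167 without the control library numbered 0 and 0.133 without that numbered 1 (limma), with the same direction in each case. MROH2A, which overlaps HJURP on the opposite strand, was at 0.197 FPKM or less in every library.

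**Figure D1:**
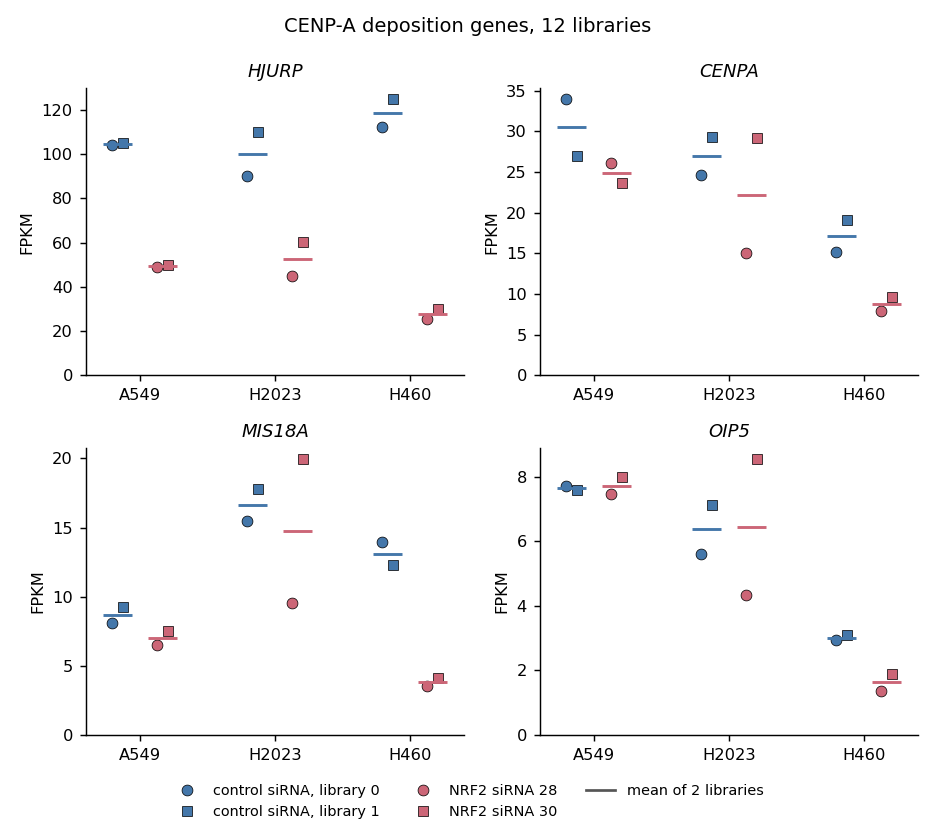
FPKM of HJURP, CENPA, MIS18A and OIP5 (vertical axes, each from 0) in each of the 12 libraries, by cell line. Circles and squares are single libraries and lines are means of 2. HJURP with NRF2 siRNA lay between 25.6 and 60.1 FPKM and with control siRNA between 90.1 and 125 FPKM, whereas the OIP5 groups overlapped in A549.

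The partners of HJURP in CENP-A deposition had smaller differences in every line. CENPA was at 34.0 and 26.9 FPKM in A549 controls and at 26.1 FPKM (siRNA 28) and 23.6 FPKM (siRNA 30) after knockdown. In H2023 CENPA was at 24.7 and 29.3 FPKM in controls, at 15.1 FPKM with siRNA 28 and at 29.2 FPKM with siRNA 30, so the groups overlapped. In H460 it was at 15.2 and 19.1 FPKM in controls and at 7.87 and 9.58 FPKM with siRNA 28 and siRNA 30. Its log2 differences were -0.28 in A549, -0.34 in H2023 and -0.90 in H460, none past the threshold (limma adjusted p = 0.541, 0.652 and 0.0670), and its average over the lines passed at -0.50 (limma adjusted p = 0.0364), a call lost in 11 of 20 alternatives. CENPA overlaps SLC35F6 on the same strand, so reads may have been shared between them.

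MIS18A, of the licensing complex, fell by 1.55 in H460 (SE 0.26, limma adjusted p = 0.0217), from 13.9 and 12.3 FPKM to 3.55 and 4.09 FPKM. Its differences in A549 and H2023 were -0.27 and -0.25. In H2023 the MIS18A values with siRNA 28 (9.51 FPKM) and siRNA 30 (19.96 FPKM) lay on either side of the controls (15.5 and 17.8 FPKM). OIP5 differed by 0.01 in A549, by -0.04 in H2023 and by -0.62 in H460, where its limma adjusted p was 0.160. In A549, OIP5 was at 7.71 and 7.59 FPKM in controls and at 7.46 and 7.98 FPKM after knockdown, and in H460 at 2.93 and 3.09 FPKM in controls and at 1.37 and 1.88 FPKM after knockdown. OIP5 overlaps NUSAP1 and OIP5-AS1 on the opposite strand, both expressed.

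Over the whole group the number of members called differed by line. In A549, HJURP was the 1 member of 47 that fell, and none rose. Of all 13898 tested genes in A549, 0.554% were called lower and 0.122% higher, and 5 members (10.6%), HJURP included, had an unadjusted p under 0.05, against 13.3% of genes. In H2023 none of the 47 passed in limma, against 0.583% of 14059 genes called lower and 0.327% called higher, and 8 (17.0%) had an unadjusted p under 0.05, against 16.9% of genes. In H460, 21 of the 47 members fell (44.7%), against 6.86% of 13446 genes, and none rose, against 7.12% of genes. The members' median log2 difference was -1.04 in H460, -0.25 in H2023 and -0.19 in A549, where the medians over all tested genes were -0.01, 0.02 and 0.02. Differences below 0 were found for 37 members in A549, for 39 in H2023 and for 46 in H460. In bulk RNA, a smaller share of cells in mitosis and less RNA per cell cannot be told apart. All 47 passed the filter of 1 FPKM in at least 2 of 4 libraries in every line. CENPP passed it in H460 through its control libraries (1.84 and 1.64 FPKM, against 0.685 and 0.596 FPKM with NRF2 siRNA).

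Both NRF2 siRNA libraries lay below both controls for 25 members in A549, against 20.5% of all tested genes, for 11 in H2023 (against 22.0%) and for 43 in H460 (against 31.6%). As shares of the 47 these were 53.2%, 23.4% and 91.5%. In H2023 the share was thus near that of all genes. The 7 members below in all 3 lines (14.9%, against 7.20% of the 11571 genes tested in every line) were HJURP, CENPE, MAD2L1, TTK, CDC20, CDCA8 and SGO2. For MAD2L1 in A549 the gap was narrow, between 35.12 FPKM with siRNA 28 and 35.15 FPKM in the lower control. Both NRF2 siRNA libraries lay above both controls for CENPH, CENPL and SKA2 in A549 (against 25.2% of genes), for ZW10 and SKA2 in H2023 (against 27.0%) and for no member in H460 (against 31.1%). The H460 groups overlapped for CENPQ, ZW10, NSL1 and SKA2. TTK, SGO2, CENPH, CENPL, CENPQ and several genes listed below lie outside the naming rule given in the methods and were named after their values were seen.

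**Figure D2:**
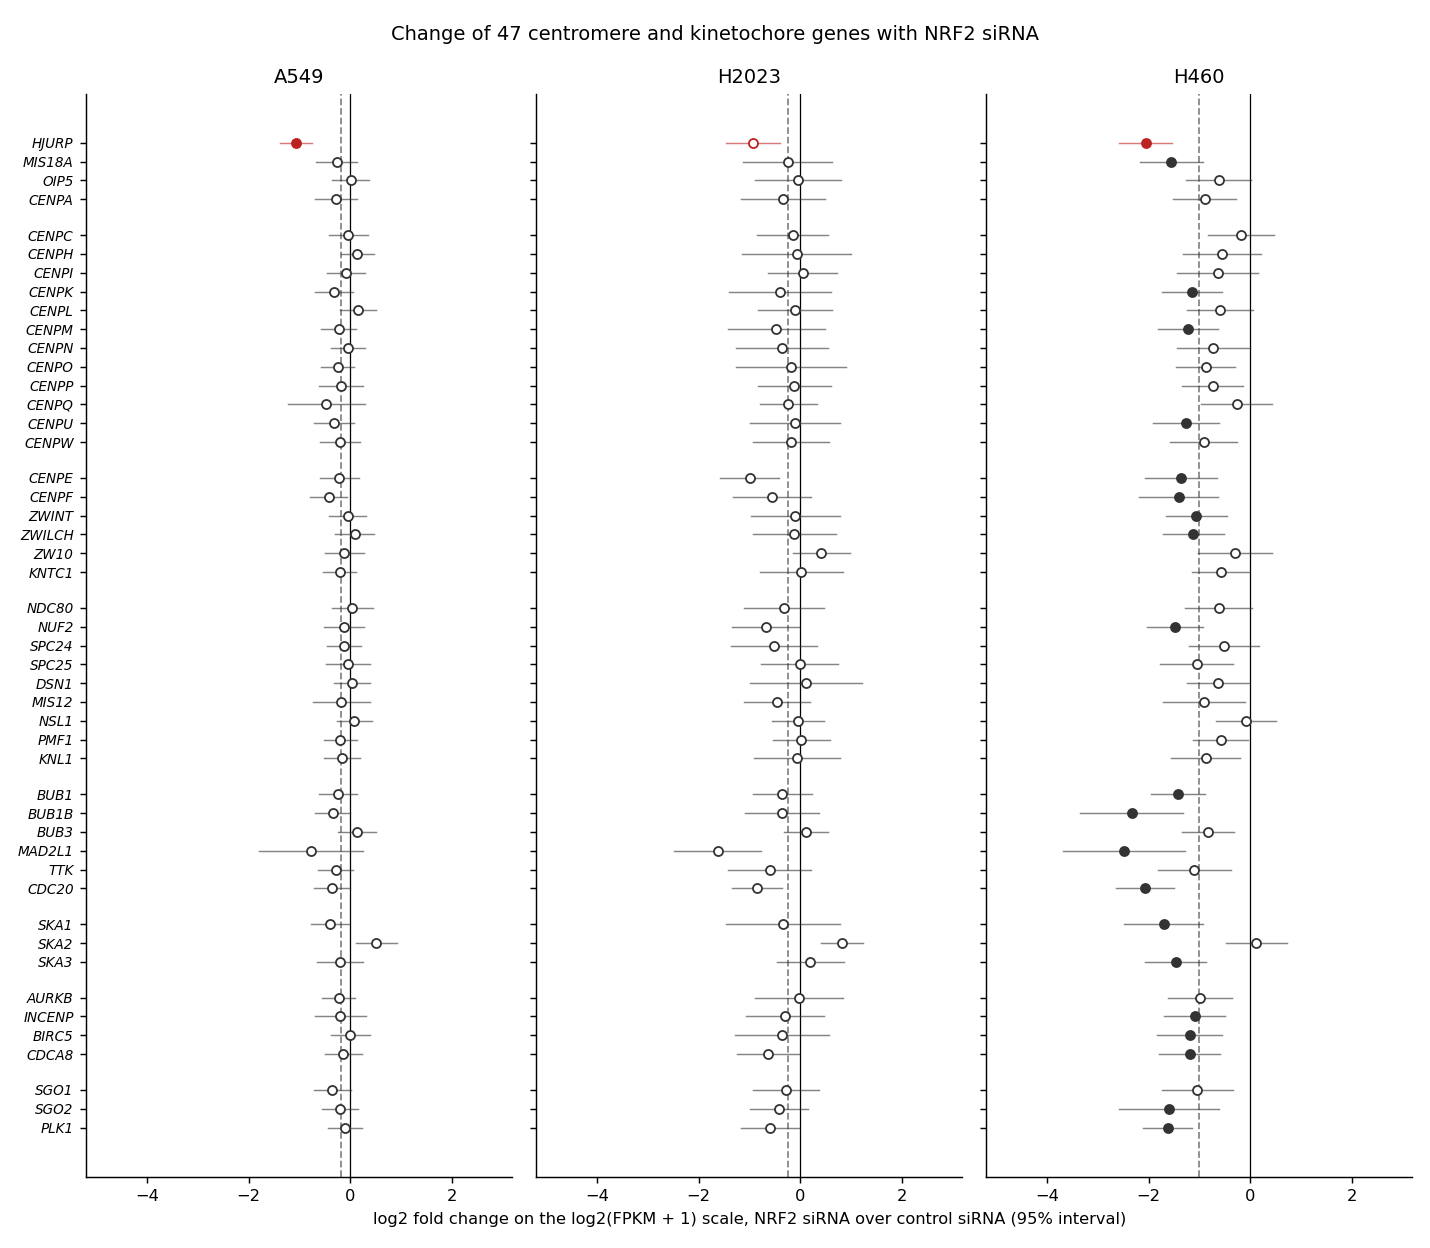
Log2 difference (NRF2 siRNA minus control siRNA, log2(FPKM + 1) scale, horizontal axis) of each of the 47 members in each line, in blocks by role, with 95% intervals. Filled points passed a limma adjusted p of 0.05, HJURP is red and the dashed line is the median of the 46 other members, which lay at -0.18 in A549, -0.24 in H2023 and -1.01 in H460. HJURP is the leftmost point in A549.

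HJURP was set against the 46 other members as a description, since it had been picked for its fall. Its log2 difference lay 0.88 below their median in A549, where it was the lowest of the 47 and MAD2L1 was next at -0.77. In H2023 it lay 0.69 below the median of the others, with MAD2L1 and CENPE lower still. In H460 it lay 1.05 below their median, with MAD2L1, BUB1B and CDC20 lower. Averaged over the lines, MAD2L1 alone differed more than HJURP (-1.63 against -1.35), and the median of the 46 others was -0.43.

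The same comparison was made within each library, as HJURP minus the median of the 46 others on the log2(FPKM + 1) scale. In A549 it went from 2.01 and 2.14 in the controls to 1.22 with siRNA 28 and 1.27 with siRNA 30. In H2023 it went from 2.44 and 2.55 to 2.14 with siRNA 28 and 1.66 with siRNA 30. In H460 it went from 2.65 and 2.68 to 1.53 with siRNA 28 and 1.71 with siRNA 30. The groups did not overlap in any line, and the pooled SD between libraries of a group was 0.25 in H2023, 0.07 in A549 and 0.09 in H460. In H460 the HJURP mRNA decline was thus accompanied by a median decline of 1.01 in the others, whereas in A549 the others differed by a median of -0.18.

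**Figure D3:**
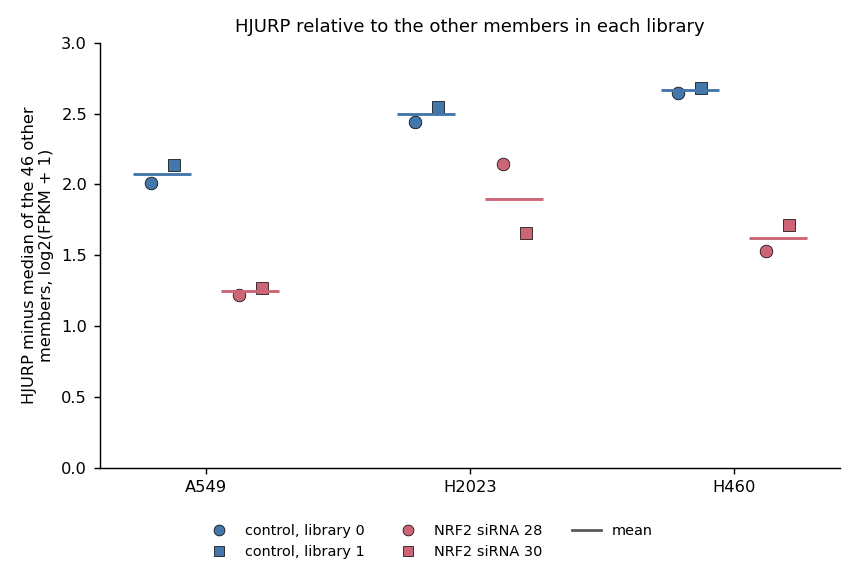
HJURP minus the median of the 46 other members in each library (vertical axis, log2(FPKM + 1) scale), by cell line. Circles and squares are single libraries and lines are means of 2. All 6 NRF2 siRNA libraries lay lower than the controls of their line, by the widest gap in H460 (2.65 and 2.68 against 1.53 and 1.71).

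The 12 members of the constitutive centromere network, which bridges CENP-A nucleosomes to the kinetochore, had a median difference of -0.73 in H460, against -0.19 in A549 and -0.16 in H2023. In H460, 3 of the 12 fell, namely CENPM (-1.22), CENPU (-1.27) and CENPK (-1.15, limma adjusted p = 0.0303, 0.0336 and 0.0340). Of all genes tested in H460, 6.86% were called lower, a share that applies to each role below too. CENPM went from 14.5 and 15.4 FPKM to 5.90 and 5.78 FPKM in H460. CENPC, which binds the CENP-A nucleosome directly, was the member of the network nearest to 0 on average, with differences of -0.03, -0.15 and -0.18 in A549, H2023 and H460. Its values in H460 were 4.89 and 4.89 FPKM in controls and 3.71 and 4.75 FPKM after knockdown.

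The list used here groups 6 genes as fibrous corona and kinetochore motor, and places ZWINT there rather than with the Knl1 complex. Of these 6, 4 fell in H460: CENPF (-1.41), CENPE (-1.36), ZWILCH (-1.12) and ZWINT (-1.06, limma adjusted p between 0.0347 and 0.0421). Without mitochondrial transcripts, whose share moved with NRF2 siRNA in H460 as given below, CENPF was the 1 of these 4 that was still called, while CENPE, ZWILCH and ZWINT were at -1.22, -0.98 and -0.91 (limma adjusted p = 0.0589, 0.0689 and 0.0750). CENPE, a plus-end-directed kinesin that carries chromosomes to the metaphase plate, went from 12.5 and 16.5 FPKM to 5.97 and 4.13 FPKM in H460. In H2023 CENPE was at 14.2 and 16.9 FPKM in controls and at 6.25 and 8.42 FPKM after knockdown, a difference of -0.996 (limma adjusted p = 0.140 in the line and 0.0375 in the fit of 12 libraries). In A549 its difference was -0.21. ZW10, which brings dynein to unattached kinetochores, differed by -0.12 in A549, by 0.42 in H2023 and by -0.30 in H460, with no call.

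The 9 genes grouped here under the Mis12, Ndc80 and Knl1 complexes belong to the microtubule-binding core. Of these, NUF2 fell by 1.49 in H460 (SE 0.23, limma adjusted p = 0.0196), from 26.4 and 29.1 FPKM to 9.06 and 9.41 FPKM. The NUF2 difference was -0.68 in H2023 (limma adjusted p = 0.287) and -0.12 in A549. NUF2's partner NDC80 differed by -0.62 in H460 without a call. NSL1, of the Mis12 complex, stood near 0 throughout (0.08, -0.04 and -0.08), with 38.8 and 34.7 FPKM in H460 controls and 29.7 and 40.2 FPKM after knockdown. The sign of the H460 value turned to 0.065 when mitochondrial transcripts were left out. PMF1 shares exons with the read-through gene PMF1-BGLAP, so its values are uncertain.

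In H460 the 3 members with the lowest differences, MAD2L1, BUB1B and CDC20, belonged to the spindle checkpoint. They were the lowest with siRNA 30, at -3.26, -2.98 and -2.25 against the control mean. With siRNA 28 they were at -1.72, -1.68 and -1.89, and SGO2 and HJURP were lowest at -2.17 each. MAD2L1 encodes MAD2, which inhibits CDC20, the activator of the anaphase-promoting complex. MAD2L1 was at 42.4 and 35.2 FPKM in A549 controls, at 35.1 FPKM with siRNA 28 and at 14.0 FPKM with siRNA 30, so that siRNA 28 lay beside the controls. In H2023 it was at 31.5 and 32.7 FPKM in controls, at 14.0 FPKM with siRNA 28 and at 6.65 FPKM with siRNA 30. In H460 it was at 52.3 and 40.1 FPKM in controls, at 13.3 FPKM with siRNA 28 and at 3.90 FPKM with siRNA 30. MAD2L1 fell by 2.49 in H460 (SE 0.50, limma adjusted p = 0.0303), and its differences of -0.77 in A549 and -1.63 in H2023 had limma adjusted p-values of 0.496 and 0.119.

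CDC20 itself fell by 2.07 in H460 (SE 0.24, limma adjusted p = 0.0132), from 68.8 and 81.7 FPKM to 19.5 and 14.9 FPKM. In H2023 it was at 95.5 and 127 FPKM in controls and at 56.3 and 65.2 FPKM after knockdown, a difference of -0.85 (limma adjusted p = 0.144 in the line and 0.0400 in the fit of 12 libraries). In A549 it was at 70.0 and 64.1 FPKM in controls and at 55.9 and 48.3 FPKM after knockdown, a difference of -0.36 (limma adjusted p = 0.374). BUB1B, which encodes the checkpoint pseudokinase BUBR1, fell by 2.33 in H460 (SE 0.42, limma adjusted p = 0.0248), from 95.3 and 108 FPKM to 30.9 and 11.96 FPKM, and differed by -0.34 in A549 and -0.36 in H2023. The read-through gene BUB1B-PAK6, on the same strand, averaged 0.094 FPKM. The kinase gene BUB1 fell by 1.43 in H460 (limma adjusted p = 0.0196). BUB3, which tethers BUB1 and BUBR1 to the kinetochore, was the highest of the 6 on average, at 0.14 in A549, 0.11 in H2023 and -0.83 in H460 (limma adjusted p = 0.0519).

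The Ska complex holds the Ndc80 complex on moving microtubule ends. Of its 3 members, SKA1 and SKA3 fell in H460, with differences of -1.70 and -1.47 (limma adjusted p = 0.0277 and 0.0223). SKA1 went from 19.3 and 15.5 FPKM to 3.42 and 6.18 FPKM, and SKA3 from 23.2 and 29.7 FPKM to 8.56 and 9.15 FPKM. In A549 their differences were -0.40 and -0.20, and in H2023 -0.33 and 0.20, with no call. SKA2, of the same trimer, was at 69.5 and 60.2 FPKM in A549 controls and at 84.4 and 103 FPKM after knockdown. In H2023 SKA2 was at 44.3 and 47.5 FPKM in controls and at 75.8 and 89.7 FPKM after knockdown, and in H460 at 69.0 and 95.2 FPKM in controls and at 82.0 and 95.5 FPKM after knockdown. Its differences were 0.52, 0.83 and 0.13 (limma adjusted p = 0.284, 0.111 and 0.760, and 0.0418 for H2023 in the fit of 12 libraries), and averaged over the lines SKA2 rose by 0.49 (SE 0.11, limma adjusted p = 0.00908). It was the 1 member that rose in the average, and its H460 value turned to -0.10 without the control library numbered 0. Differences between the 3 Ska genes were not tested.

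**Figure D4:**
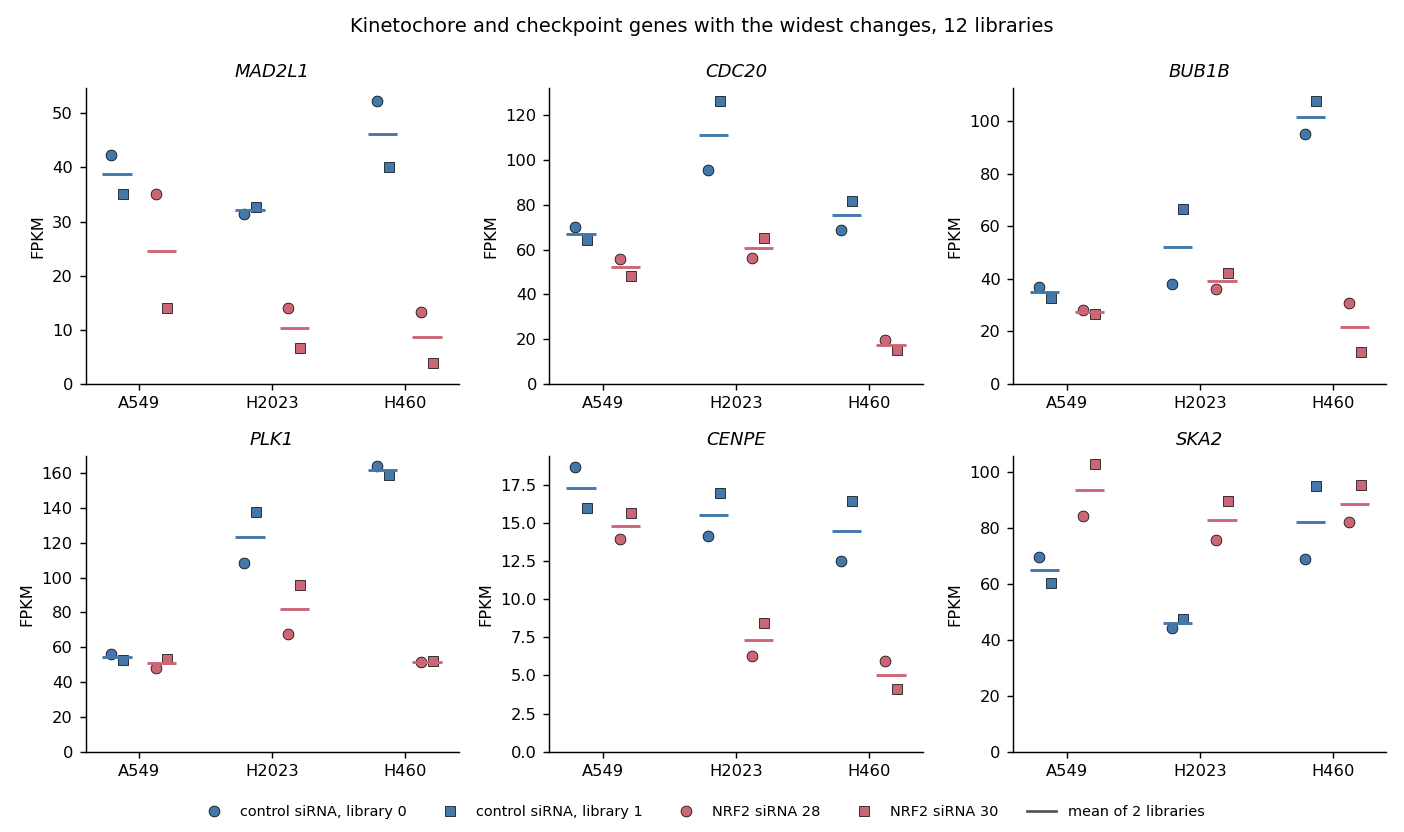
FPKM of MAD2L1, CDC20, BUB1B, PLK1, CENPE and SKA2 (vertical axes, each from 0) in each of the 12 libraries, by cell line. Circles and squares are single libraries and lines are means of 2. In H460 the first 5 genes show no overlap between the groups, as for CDC20 (68.8 and 81.7 against 19.5 and 14.9 FPKM), whereas SKA2 overlaps there.

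In the chromosomal passenger complex, which corrects faulty attachments, 3 of 4 members fell in H460: CDCA8 (borealin) at -1.19, BIRC5 (survivin) at -1.19 and INCENP at -1.096 (limma adjusted p = 0.0329, 0.0368 and 0.0381). Without mitochondrial transcripts they were at -1.05, -1.04 and -0.95 and did not pass (limma adjusted p = 0.0570, 0.0516 and 0.0761). The kinase AURKB, the catalytic subunit, differed by -0.98 in H460 (limma adjusted p = 0.0544), by -0.23 in A549 and by -0.02 in H2023. AURKB was at 49.3 and 74.0 FPKM in H460 controls and at 29.4 and 30.8 FPKM after knockdown. Of the 3 genes of cohesin protection and mitotic kinase activity, PLK1 fell by 1.63 in H460 (SE 0.20, limma adjusted p = 0.0152), from 164 and 159 FPKM to 51.3 and 52.2 FPKM. PLK1, the polo-like kinase that licenses CENP-A loading and acts throughout mitosis, was at 109 and 138 FPKM in H2023 controls and at 67.9 and 95.6 FPKM after knockdown, and at 56.1 and 52.9 FPKM in A549 controls and at 48.3 and 53.2 FPKM after knockdown. SGO2 (a shugoshin) fell by 1.61 in H460 (limma adjusted p = 0.0492). SGO1, which shields centromeric cohesin from removal in prophase, differed by -0.35, -0.27 and -1.04 in A549, H2023 and H460, the last with a limma adjusted p of 0.0610.

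The H460 count moved with the control libraries, with the filter and with leaving out mitochondrial transcripts. With median-ratio scaling of all values it was 20, each among the 21 (against 6.39% of genes). With either H460 control library left out, none of the 47 and 1 of 13446 genes passed in limma, and without a filter on low values none of the members and none of 29735 genes passed and HJURP was at an adjusted p of 0.108 (limma). The mitochondrial genome took 8.56% and 13.1% of the FPKM sum in H460 controls and 20.8% and 26.0% after knockdown. When mitochondrial transcripts were left out and values rescaled, the median of all H460 genes went from -0.01 to 0.12, the members' median from -1.04 to -0.91 and the number that fell from 21 to 13, HJURP among them, against 4.33% of 13477 genes. The 8 calls lost were those of CENPK, CENPE, ZWINT, ZWILCH, INCENP, BIRC5, CDCA8 and SGO2, with differences between -1.49 and -0.91 and limma adjusted p-values between 0.0509 and 0.0761 after rescaling. HJURP, MIS18A, the 4 checkpoint genes called before (of 6), SKA1 and SKA3 were still called (limma). In H2023 the mitochondrial share was 11.97% and 18.1% in controls and 17.3% and 22.8% after knockdown, and in A549 it lay between 0.892% and 1.56%.

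Averaged over the 3 lines, 23 members fell (against 14.5% of 11571 genes) and SKA2 rose (against 15.2% of genes). The members that fell included 5 of 6 checkpoint genes, all 3 of the cohesin and kinase group, 3 of 4 deposition genes, 2 of 3 Ska genes, 2 of 4 passenger genes, 2 of 6 of the corona and motor, 4 of 12 of the constitutive network and 2 of 9 of the Mis12, Ndc80 and Knl1 group. Differences between these shares were not tested. The lowest averages after MAD2L1 and HJURP were those of CDC20 (-1.09), BUB1B (-1.01) and CENPE (-0.86), with limma adjusted p-values of 0.000165, 0.00625 and 0.00134. The 3 members nearest to HJURP by their mean over the 3 lines were CDC20, MAD2L1 and BUB1B. Across the 46 members other than HJURP, the differences correlated between A549 and H2023 (Pearson r 0.65, Spearman rho 0.47), A549 and H460 (0.63 and 0.56) and H2023 and H460 (0.68 and 0.60). These are descriptions across genes that share libraries and siRNAs, and genes are not independent replicates.

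Whether the effect itself differed between lines was tested in the fit of all 12 libraries. The limma F test called CDC20 (adjusted p = 0.0316) and PLK1 (adjusted p = 0.0376) of the 47, against 2.51% of 11571 genes, and HJURP had an adjusted p of 0.0585. The H460 effect was lower than that of A549 for CDC20 (a difference of effects of -1.71), PLK1 (-1.52) and NUF2 (-1.37), with limma adjusted p-values of 0.0215, 0.0257 and 0.0445, against 1.71% of genes called lower and 1.42% higher. The H460 effect was lower than that of H2023 for SKA3 (-1.67), CDC20 (-1.22) and HJURP (-1.13), with limma adjusted p-values of 0.0311, 0.0432 and 0.0414, against 2.02% of genes called lower and 1.30% higher. For HJURP the H460 minus A549 difference of -0.99 did not pass (limma adjusted p = 0.0588), though it did without the H2023 library of siRNA 28 (0.0392) or of siRNA 30 (0.0394). The HJURP effects of H2023 and A549 differed by 0.14, with a 95% interval of -0.42 to 0.70. These calls depended on single libraries. The F test called 0 members without any 1 A549 library, without any 1 control library of H2023 or H460, or without mitochondrial transcripts, and 15 without the H2023 library of siRNA 28 (against 5.40% of genes). The HJURP call between H460 and H2023 was lost in 14 of 20 alternatives.

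To compare siRNA 28 with siRNA 30, the 6 libraries made with them were fitted with a term for cell line. No member and no gene passed in limma (against 0% of 15716 genes), 9 members (19.1%) had an unadjusted p under 0.05, against 18.2% of genes, and the single fit of all 12 libraries called 5 (10.6%), CENPH, CENPU, MIS12, MAD2L1 and SKA1, against 12.1% of 11571 genes, a share near that of all genes. HJURP differed between siRNA 28 and siRNA 30 by -0.21 (95% interval -0.55 to 0.12, limma adjusted p = 0.448). MAD2L1 had the widest difference of any member at 1.26 (95% interval 0.84 to 1.69, limma adjusted p = 0.126 in the 6 libraries and 0.00166 in the fit of 12), higher with siRNA 28 in all 3 lines. It differed by 1.27 in A549, 0.97 in H2023 and 1.54 in H460. MIS12, CENPQ and ZW10 were also higher with siRNA 28 in all 3 lines, which made 4 members (8.51%) against 27.4% of 11571 genes, and 19 members (40.4%) were lower with siRNA 28 in all 3 lines, against 19.8% of genes. By line, 43 members were lower with siRNA 28 in H2023 (91.5%, against 48.6% of genes), 28 in A549 (59.6%, against 40.6%) and 28 in H460 (59.6%, against 48.4%). The low MAD2L1 average thus rested more on the libraries of siRNA 30. Counted from the lowest difference, HJURP stood at position 1 of 47 with siRNA 28 and 2 with siRNA 30 in A549, at 3 and 4 in H2023, and at 2 and 4 in H460. The members lower than HJURP in at least 1 of the 6 libraries were MAD2L1, CENPE, CDC20, BUB1B and SGO2.

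In H2023 the libraries of siRNA 28 and siRNA 30 differed over the group as a whole. Each siRNA had 1 library in a line, always numbered 0 for siRNA 28 and 1 for siRNA 30, so the siRNA and the library cannot be told apart. The H2023 controls of those numbers ran the same way, with the median of the 46 others at 4.07 in control 0 and 4.25 in control 1, against 3.38 with siRNA 28 and 4.28 with siRNA 30 (log2(FPKM + 1) levels). The median of the 46 others against the control mean was -0.55 with siRNA 28 and 0.17 with siRNA 30, and 45 of the 47 were below 0 with siRNA 28 and 16 with siRNA 30. In A549 the medians were -0.15 and -0.16 and in H460 -1.01 and -0.95. HJURP in H2023 was at -1.13 with siRNA 28 and at -0.72 with siRNA 30, so that with siRNA 30 it lay below 0 while the median of the others lay above. Without the H2023 library of siRNA 30, 10 members were called lower in H2023 (limma), HJURP included at an adjusted p of 0.0192, against 3.40% of genes, and 37 in the average of the 3 lines, against 14.8%. The NRF2 siRNA group of H2023 then held the library of siRNA 28 alone, which was assumed to vary like the other groups, so these calls are no test of the siRNAs against each other. Without the library of siRNA 28 instead, MAD2L1 was the 1 member called lower (against 4.16% of genes) and SKA2 the 1 called higher (against 3.47%), and HJURP was at -0.72 with a limma adjusted p of 0.0665. NFE2L2 itself was at 7.74 FPKM with siRNA 28 and at 6.80 FPKM with siRNA 30 in H2023, and its part in this difference was not tested.

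**Figure D5:**
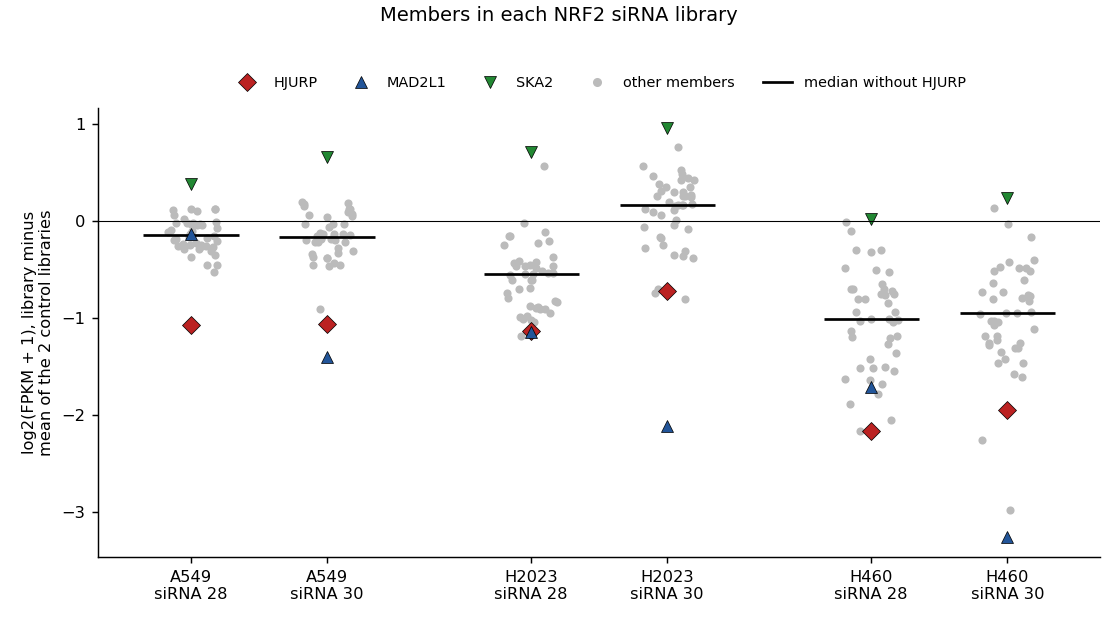
Each member in each NRF2 siRNA library as its log2(FPKM + 1) value minus the mean of the 2 control libraries of the line (vertical axis). Grey points are members, the black line is the median of the 46 members other than HJURP, and coloured symbols mark HJURP, MAD2L1 and SKA2. The H2023 medians lie at -0.55 (siRNA 28) and 0.17 (siRNA 30), while HJURP lies below the median in all 6 libraries.

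Other cell cycle genes, taken from lists chosen with earlier results of these data known, were set beside the members. The all-gene shares given above for each line apply to these counts too. Of 23 other centromere and kinetochore genes, none passed in A549 or H2023 (limma, with 4 and 3 at an unadjusted p under 0.05) and 6 fell in H460, with medians of -0.07, -0.28 and -0.60. Among them CENPX, a histone-fold protein of the centromere, fell by 1.62 in H460 (limma adjusted p = 0.0179). Of 25 other G2 and M phase genes, none passed in A549 or H2023 (limma, with 1 and 6 at an unadjusted p under 0.05) and 14 fell in H460, with medians of -0.14, -0.43 and -1.15. The cyclin genes CCNB1 and CCNB2 fell in H460, with differences of -1.52 and -2.04 (limma adjusted p = 0.0193 and 0.0197). Of 14 genes of the G1 to S transition, none passed in A549 or H2023 (limma, with 4 and 0 at an unadjusted p under 0.05) and 8 fell in H460, with medians of -0.26, 0.02 and -1.40. Genes of all 3 lists were thus called lower in H460 beside the members. The shares there were 26.1%, 56% and 57.1% of the lists in turn, against 44.7% of the members. In the average of the lines 10, 20 and 6 genes of the lists were called lower, against 14.5% of all genes. The lowest differences in H2023 were NDE1 (-1.04), CCNB2 (-1.23) and MCM6 (-0.56) of the lists in turn, against -0.93 for HJURP. The part of cell cycle position in the members' values was not tested.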

How the data were processed

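RNA was sequenced from 12 libraries of A549, H2023 and H460 cells. Per the labels the libraries were strand-specific, and the submitters' processing notes name bcl2fastq 2.15.0, cutadapt 1.15, STAR 2.5.3a, SAMtools, Cuffnorm, HTSeq, DESeq2 and R 3.2.0 with the builds hg19 and GRCh37.p13, while the study's methods name TopHat and Cufflinks. The authors deposited FPKM values per gene and library, which allow for transcript length and sequencing depth and divide shared reads by estimate. Use of strand in that step was not given in the sources used here. The authors also deposited DESeq2 tables of their own comparison per line (mean normalised count, log2 fold change, standard error, Wald statistic, p and adjusted p), which were not used. Read counts per library were not used here, so precision rests on the spread between libraries. That spread is of the gene itself and, through the prior variance given below, of other genes with similar mean expression. In the NRF2 siRNA groups it is the spread between libraries made with differing siRNAs. The p-values measure only these spreads.

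Values under 1e-06 (12710 in all) were set to 0, and no pair of libraries was identical. Identifiers were matched without version to a table of gene symbols (96.1% matched), and positions are those of GENCODE on GRCh37. Genes with FPKM of at least 1 in 2 of the 4 libraries of a line were tested on log2(FPKM + 1) with limma 3.58.1 in R 4.3.3, with a prior variance that follows mean expression, 2 residual degrees of freedom per line, Benjamini-Hochberg adjustment over all genes tested and a two-sided threshold of 0.05. The average effect and the differences between lines came from 6 group means over 12 libraries (6 residual degrees of freedom), for genes that passed the filter in every line. Scripts ran in Python 3.11.15 with numpy 2.4.6, pandas 2.3.3 and matplotlib 3.10.9, and were tested on simulated data, where false calls were somewhat more frequent than the threshold implies. RefSeq promoters of GRCh38.p14 were searched for fixed letters and are not on the build of the expression files.

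The members and lists were chosen with earlier results of these data known. Genes were named by rule: HJURP and its deposition partners, members called in A549 or H2023 or between lines or siRNAs, the member with the lowest and the highest mean difference of each role, any member that rose past the threshold, and the 3 nearest to HJURP. Library numbers were not taken to pair samples. Alternatives covered the pseudocount, filter, scaling, prior variance, replicate block, joint fit and each library left out.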

Additional observations from a re-analysis of the deposited data

Results flagged for a closer look

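The limma F test over the 3 lines called the effect of NRF2 siRNA as differing for 2 of the 47 members, CDC20 and PLK1, against 2.51% of genes. CDC20 was called over the 3 lines (F test, limma adjusted p = 0.0316), with an effect lower in H460 than in A549 (a difference of -1.71 on the log2 scale) and than in H2023 (-1.22). PLK1 was called over the 3 lines (F test, limma adjusted p = 0.0376), with an H460 minus A549 difference of -1.52. The other 3 were called in a contrast of 1 pair of lines and not by the F test: NUF2 for H460 minus A549 at -1.37 (against 1.71% of genes called lower), and SKA3 at -1.67 and HJURP at -1.13 for H460 minus H2023 (against 2.02%). The HJURP call was lost in 14 of 20 alternatives. With 2 libraries a group, no group was large enough to single out a library by its distance from the others.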

How the results depend on the processing

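The direction of HJURP was the same in every line under all alternatives run, and its fall in the average of the lines was called in all 20. The A549 call was lost, leaving no member called (0 of 47), without a filter on low values (HJURP -1.07, limma adjusted p = 0.118), with a filter on the mean (-1.07, 0.0559), without mitochondrial transcripts (-1.17, 0.0669), with one prior variance (-1.07, 0.0532) and with a replicate block (-1.07, 0.0602). Leaving out single A549 libraries left HJURP uncalled, at between -1.07 and -1.06, with the members' median between -0.20 and -0.12. HJURP minus the median of the others then lay between -0.96 and -0.87. Without mitochondrial transcripts the A549 median was -0.29, while the median of all tested A549 genes went from 0.02 to -0.07. That setting also rescaled the libraries of a line to the same FPKM sum. The mitochondrial share in A549 lay between 0.892% and 1.56%, and the parts of removal and rescaling were not tested.

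In H2023, 1 fit of all 12 libraries called 3 lower (against 1.75% of genes) and 1 higher (2.18%; HJURP -0.93, limma adjusted p = 0.0180). Leaving out single H2023 libraries gave 0 to 10 lower, 0 to 1 higher, HJURP between -1.13 and -0.72, the median between -0.55 and 0.16, and HJURP minus the median between -0.89 and -0.58. The replicate block, run although the labels do not say that numbers pair samples, called 4 lower in H2023 (against 2.12% of genes) and 1 higher (2.94%; HJURP -0.93, limma adjusted p = 0.0276), 29 in H460 (11.4%) and 0 between lines (0.657%), with HJURP in H460 minus A549 at -0.99 (0.0490). Deviations of same-numbered libraries from their group means correlated by -0.03 in A549, 0.31 in H2023 and 0.16 in H460.

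In H460 no filter left 0 lower (HJURP -2.06, limma adjusted p = 0.108), leaving out mitochondrial transcripts left 13 lower (median -0.91, NSL1 turned to 0.065), and the 12-library fit called 32 (against 17.8% of genes). Leaving out single H460 libraries gave 0 to 23 lower, HJURP between -2.17 and -1.95, the median between -1.07 and -0.93, HJURP minus the median between -1.16 and -0.998, NSL1 between -0.30 and 0.13 and SKA2 between -0.10 and 0.36. Without a filter 15 members fell in the average (against 5.82% of genes), and leaving out single libraries gave 16 to 37. Members that differed between lines numbered 1 without a filter (1.52% of genes), 0 without mitochondrial transcripts (1.85%) and 1 with a weight per line (0.786%). That number also changed when single libraries were left out, which leaves 1 library in a group. HJURP in H460 minus H2023 lost its call without a filter (-1.13, limma adjusted p = 0.0537), without mitochondrial transcripts (-1.08, 0.0980), with median-ratio scaling (-1.06, 0.0531), with one prior variance (-1.13, 0.0552) and with a weight per line (-1.13, 0.0826). Leaving out single libraries gave -1.34 to -0.93 for it and -1.10 to -0.88 for H460 minus A549, which was called without either H2023 NRF2 siRNA library (limma adjusted p = 0.0392 and 0.0394). Between siRNAs the 12-library fit called 5 (12.1% of genes). Fits with a library left out have fewer samples and leave 1 library in a group. The range of 16 to 37 members in the average therefore does not measure the members against all genes. The causes of the other changes were not tested. With 2 libraries a group, a p that misses the threshold does not show that values did not differ.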

Other observations

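The genes around HJURP were read as well. Within 250 kb, MSL3P1, a transcribed pseudogene upstream of HJURP on the same strand, was at 16.9 and 16.9 FPKM in A549 controls and at 15.2 and 14.3 FPKM after knockdown, and its differences were -0.19 in A549, -0.04 in H2023 and -0.02 in H460, none called in limma. UGT1A6, a glucuronosyltransferase gene downstream of HJURP, was at 3.00 and 2.36 FPKM in A549 controls and at 0.569 and 0.236 FPKM after knockdown (log2 difference -1.39, limma adjusted p = 0.0774), and it was at 0.0761 FPKM or less in every H460 library. The exons of the UGT1A genes are largely shared, so reads may have been divided among them by estimate.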
